A study of Mus musculus with 20 samples.

Results

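The 10 genes described here mark hepatic stellate cells or carry the transforming growth factor beta (TGF-beta) signal that acts on them: Acta2, Tagln, Pdgfra, Pdgfrb, Des, Lrat, Reln, Ngfr, Tgfb1 and Tgfb2. They were chosen by name from a written list, and all 10 were found among the 46603 gene identifiers of the count tables. Their messenger RNA was measured by poly(A) RNA sequencing of liver pieces from 2-month-old male mice, in 20 libraries. One genotype was wild type (WT, strain C57BL6/J, bought from a vendor). The other was EedHepKO (KO), in which a Cre recombinase under the albumin promoter (Alb:Cre) acts on Eed alleles that carry loxP sites at exons 3 and 6, so that functional EED, a core subunit of polycomb repressive complex 2, is lost in hepatocytes. The albumin promoter is a hepatocyte promoter, so stellate cells are not the cells that the deletion was designed to reach. Every animal had a partial hepatectomy (PHx), the surgical removal of part of the liver. Lobes 1, 2 and 3, removed at surgery, were the baseline sample, and lobes 4, 5 and 6 were collected at 30 h (1 mouse of each genotype), 40 h (2 mice) or 48 h (2 mice). Each genotype thus has 5 libraries from baseline and 5 from after PHx, which makes 4 groups. The labels give 1 strain, C57BL6/J, for both genotypes, but the WT mice were bought and the KO mice came from crosses, so genotype and colony cannot be told apart. The response to PHx and the lobe sampled cannot be told apart either.

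Stellate cells are the vitamin A-storing pericytes of the liver sinusoid. In the quiescent state they hold retinyl esters, and after injury they can turn into contractile, matrix-producing myofibroblasts. TGF-beta is secreted in a latent form, is released by integrins and other activators, and signals through a pair of receptor kinases to the SMAD proteins; platelet-derived growth factor (PDGF) acts on PDGF receptors as a mitogen for these cells. In regenerating liver TGF-beta is known as a brake on hepatocyte division. Lrat makes retinyl esters, Reln encodes the secreted glycoprotein reelin, Ngfr is the low-affinity neurotrophin receptor, and Des is the intermediate filament protein desmin. Acta2 (alpha smooth muscle actin) and Tagln (transgelin) are contractile proteins that myofibroblasts share with vascular smooth muscle.

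The promoters of a few of these genes are shown because the results below separate them: Acta2 as the contractile marker, Tgfb1 and Tgfb2 as the ligands, and Pdgfra as the receptor whose levels moved most with Tgfb2. RefSeq promoters on build GRCm38.p6 (300 bases, from 250 before to 50 after the annotated start) were at hand for 8 of the 10 genes, the others being Tagln and Pdgfrb. In the Acta2 promoter (chr19:34255324-34255623, minus strand), capitals mark CArG boxes, the binding motif of serum response factor, with at most 1 base off the consensus. They lie at -84 to -75 and -34 to -25 from the RefSeq start. That start is not the 5' end of Acta2 in the GENCODE M21 annotation, which is at 34255590. Lrat held 1 such box as well, at -223 to -214, and none of the others among the 8 promoters did. Such a box, on either strand, was present in 21.1% of the 32851 promoters in the table, and an exact CArG box, found in none of the 8, in 1.63%.
Acta2: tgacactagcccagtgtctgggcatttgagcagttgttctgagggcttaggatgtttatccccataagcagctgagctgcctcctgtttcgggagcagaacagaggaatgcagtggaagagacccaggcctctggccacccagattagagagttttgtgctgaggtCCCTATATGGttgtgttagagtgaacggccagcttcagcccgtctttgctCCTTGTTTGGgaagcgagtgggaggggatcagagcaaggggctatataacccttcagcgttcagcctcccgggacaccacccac
In the other promoters capitals mark CG, the dinucleotide whose density marks the CpG-rich promoters at which polycomb proteins are often found. Pdgfra (chr5:75152001-75152300, plus strand) holds 5, Tgfb1 (chr7:25686752-25687051, plus strand) holds 30 and Tgfb2 (chr1:186705940-186706239, minus strand) holds 10, beside a median of 7 and quartiles of 3 and 20 over all promoters.
Pdgfra: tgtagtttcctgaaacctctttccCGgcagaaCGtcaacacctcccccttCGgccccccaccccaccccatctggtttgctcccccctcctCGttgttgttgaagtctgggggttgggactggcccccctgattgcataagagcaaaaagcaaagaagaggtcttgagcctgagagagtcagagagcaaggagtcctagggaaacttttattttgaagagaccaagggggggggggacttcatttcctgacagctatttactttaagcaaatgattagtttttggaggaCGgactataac
Tgfb1: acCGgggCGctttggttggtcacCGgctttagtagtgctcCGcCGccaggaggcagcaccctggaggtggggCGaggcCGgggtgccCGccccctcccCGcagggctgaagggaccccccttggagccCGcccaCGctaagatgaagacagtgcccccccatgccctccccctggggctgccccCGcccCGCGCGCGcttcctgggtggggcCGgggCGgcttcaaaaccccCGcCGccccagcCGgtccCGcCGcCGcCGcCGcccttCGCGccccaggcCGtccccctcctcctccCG
Tgfb2: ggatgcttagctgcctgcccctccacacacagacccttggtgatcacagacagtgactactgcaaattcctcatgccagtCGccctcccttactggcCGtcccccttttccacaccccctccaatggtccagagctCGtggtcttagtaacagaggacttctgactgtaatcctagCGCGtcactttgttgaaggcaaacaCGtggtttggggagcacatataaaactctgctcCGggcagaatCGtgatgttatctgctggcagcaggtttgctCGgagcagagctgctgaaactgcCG
Among the 8 promoters the motif TATAAA was found in Tgfb2 alone, at -31 to -26, and 13.6% of all promoters hold it on either strand. The SMAD-binding core CAGAC, on either strand, occurred in the promoters of Acta2, Pdgfra, Des and Tgfb2, and 49.6% of all promoters hold it. CG was densest at Reln, with 47, more than in 98.6% of promoters, and Lrat had 21, Ngfr 23, Des 11 and Acta2 6.

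Levels are given as CPM, a count scaled by the total of its library after TMM normalization, and as CPM per kb of exon where genes are compared with each other. Library totals ranged from 21634890 to 30461351 counts. Eed, of which the files count the whole gene, ranged from 14.6 to 23.2 CPM in WT and from 2.75 to 7.52 CPM in KO libraries, without overlap. The hepatocyte markers Alb, Ttr, Apoa1, Cps1, Cyp2e1 and Serpina1a summed to between 37655 and 138085 CPM in the 20 libraries. Without replicate 10 of KO after PHx the number of genes whose response to PHx differed between genotypes went from 57 to 708, while the count among the 10 genes was 0 either way. WT baseline replicate 1 stood apart from its group, with a chi-square per degree of freedom of 304 to 330 against the other 4 libraries, which had 25.1 to 37.7 among themselves. Without it 4 of the 10 genes were called higher in KO at baseline: Pdgfra (1.56, edgeR adjusted p 0.0149), Pdgfrb (1.41, 0.0275), Tgfb1 (1.02, 0.0230) and Tgfb2 (2.76, 0.0240), while Reln missed the threshold (0.87, 0.0816). In the WT response Pdgfra was called without it as well (1.28, edgeR adjusted p 0.0359) and the other 9 genes were not. Among the list genes named below, leaving it out ended the calls of Cdh5 (0.0678) and Apoa1 (0.0808) at baseline and of Itgav (0.0591), Pdgfd (0.0643), Cygb (0.0633), Cldn4 (0.0727) and Csf1r (0.119) in the WT response. Tests are edgeR quasi-likelihood tests over 14661 genes, "called" means an adjusted p (Benjamini-Hochberg, across every gene tested) under 0.05, and fold changes are log2 values with their standard error (SE). All 10 genes passed the filter on low counts. Replicates are separate mice within a group. In lists of values below, WT replicates run 1 to 5 and KO replicates 7, 8, 10, 11 and 12, with the same mouse carrying the same number at baseline and after PHx (the title of WT baseline replicate 1 gives no mouse number).

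In resting liver 5 of the 10 genes were higher in KO than in WT. None was called lower, beside 11.1% of all genes tested called higher, 4.89% called lower and 16% called in either direction. The called genes were the ligands Tgfb1 and Tgfb2, the receptors Pdgfra and Pdgfrb, and Reln. All 10 fitted values were positive, with a median of 0.92 against -0.03 over all genes tested. In bulk tissue, more cells of a type and more RNA per cell cannot be told apart. The hepatocyte marker sum was lower in the same comparison, at 120398 to 138085 CPM in WT and 74209 to 98840.2 CPM in KO, and its part in these differences was not tested.

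Tgfb2 (ENSMUSG00000039239, mm10 chromosome 1, 186622792 to 186705989), a TGF-beta ligand of low abundance here, had 0.650, 0.300, 0.103, 0.367 and 0.550 CPM in the WT baseline libraries. In the KO baseline libraries it had 4.18, 1.65, 2.62, 1.54 and 1.36 CPM. Every KO library lay above every WT library, and the largest KO value was in replicate 7. The difference was 2.53 (SE 0.69, edgeR adjusted p 0.0170), on only 2 to 12 counts per WT library. Tgfb1 (ENSMUSG00000002603, chromosome 7, 25687002 to 25705077), the main ligand in fibrotic liver, had 9.49, 6.15, 5.97, 6.28 and 5.50 CPM in WT and 15.8, 9.76, 11.6, 12.3 and 11.3 CPM in KO. The groups did not overlap, although WT replicate 1, at 9.49 CPM, came close to KO replicate 8, at 9.76 CPM. The difference was 0.86 (SE 0.27, edgeR adjusted p 0.0346). Its call was lost without any one of WT replicates 2, 3, 4 and 5 or KO replicates 7, 10 and 11, at adjusted p 0.0569 to 0.0838 and log2 differences of 0.80 to 0.88.

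The PDGF receptors were both higher in KO. Pdgfra (ENSMUSG00000029231, chromosome 5, 75152292 to 75198215), the receptor that binds PDGF-A, had 2.28, 3.85, 4.22, 1.61 and 3.03 CPM in WT and 11.5, 6.38, 10.9, 9.51 and 8.36 CPM in KO. The lowest KO library was above the highest WT library, and the difference was 1.64 (SE 0.37, edgeR adjusted p 0.00461). Pdgfrb (ENSMUSG00000024620), the pericyte receptor for PDGF-B, had 6.50, 5.45, 4.73, 4.08 and 7.16 CPM in WT and 18.1, 8.45, 14.4, 16.6 and 13.8 CPM in KO. Here too the groups did not overlap, with KO replicate 8 lowest, and the difference was 1.35 (SE 0.37, edgeR adjusted p 0.0158). Neither call was lost when any 1 library was left out. Ngfr (ENSMUSG00000000120, chromosome 11, 95568818 to 95587735) had 4.29, 3.10, 3.81, 1.97 and 3.49 CPM in WT and 8.66, 3.85, 8.38, 11.6 and 6.85 CPM in KO. KO replicate 8 lay inside the WT range, and the difference of 1.24 (SE 0.56, edgeR adjusted p 0.135) was not called.

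Among the markers of quiescent stellate cells, Reln (ENSMUSG00000042453, chromosome 5, 21884454 to 22344702) had 29, 40.6, 42.4, 36.1 and 33.4 CPM in WT and 44.7, 49.9, 89.5, 87.4 and 76.0 CPM in KO. All KO libraries were higher, but replicates 7 and 8 only just, and the difference was 0.94 (SE 0.29, edgeR adjusted p 0.0350). Reln no longer passed the threshold without any one of the 5 WT libraries or KO replicates 10, 11 and 12, at adjusted p 0.0518 to 0.0906 and log2 differences of 0.83 to 1.00. Lrat (ENSMUSG00000028003, chromosome 3, 82892579 to 82903973) had 12, 17.4, 12.4, 10.1 and 14.4 CPM in WT and 27.6, 31.4, 24, 15.3 and 16.4 CPM in KO. KO replicates 11 and 12 lay inside the WT range, the reverse of their place for Reln, and the difference of 0.79 (SE 0.38, edgeR adjusted p 0.165) was not called.

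None of the 3 cytoskeletal genes was called at baseline. Acta2 (ENSMUSG00000035783, chromosome 19, 34241090 to 34255590) had 2.02, 2.50, 1.44, 1.38 and 1.56 CPM in WT and 4.71, 6.34, 1.28, 1.29 and 2.58 CPM in KO. Tagln (ENSMUSG00000032085, chromosome 9, 45929619 to 45936058) had 7.61, 8.55, 4.79, 5.50 and 4.04 CPM in WT and 15.2, 19.6, 6.14, 9.26 and 6.81 CPM in KO. Both were highest in KO replicates 7 and 8. Acta2 in KO replicate 12 and Tagln in KO replicate 11 also lay above every WT library, and the remaining KO libraries lay inside or below the WT range. The spread within KO (68.8% coefficient of variation for Acta2 and 51.0% for Tagln) was wider than in WT (26.7% and 31.3%). Their differences were 0.87 (SE 0.54, edgeR adjusted p 0.293) and 0.91 (SE 0.46, edgeR adjusted p 0.195). Des (ENSMUSG00000026208, chromosome 1, 75360329 to 75368579) had 4.55, 4.45, 3.45, 3.49 and 2.16 CPM in WT and 5.67, 3.34, 5.72, 6.77 and 8.40 CPM in KO, a difference of 0.73 (SE 0.38, edgeR adjusted p 0.200). Here KO replicate 8 was the lowest KO library, whereas it was the highest for Acta2 and Tagln. The Tagln count carries a limit of its own, since the strand setting of the counting is not given in the sources used here. Of its exonic length 62.4% overlaps an antisense gene, Gm48529, which is not among the counted genes. Another gene on the opposite strand, Pcsk7, overlaps 5.43% and reached 800 counts in a library, where Tagln reached at most 713. For the other 9 genes the overlapping annotated genes reached at most 4 counts in any library.

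The number of genes called at baseline depended on the fit. When the baseline libraries alone were fitted, 9 of the 10 genes were called higher, all but Acta2, beside 5242 genes called among all tested instead of 2348. With scaling by library size alone 9 were also called, but that scaling moved the median of all genes by 0.48 toward KO and put 96.9% of all calls on the higher side instead of 69.5%. Groups did not overlap for 5 of the 10 genes, beside 27.9% of all genes tested.

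**Figure D1:**
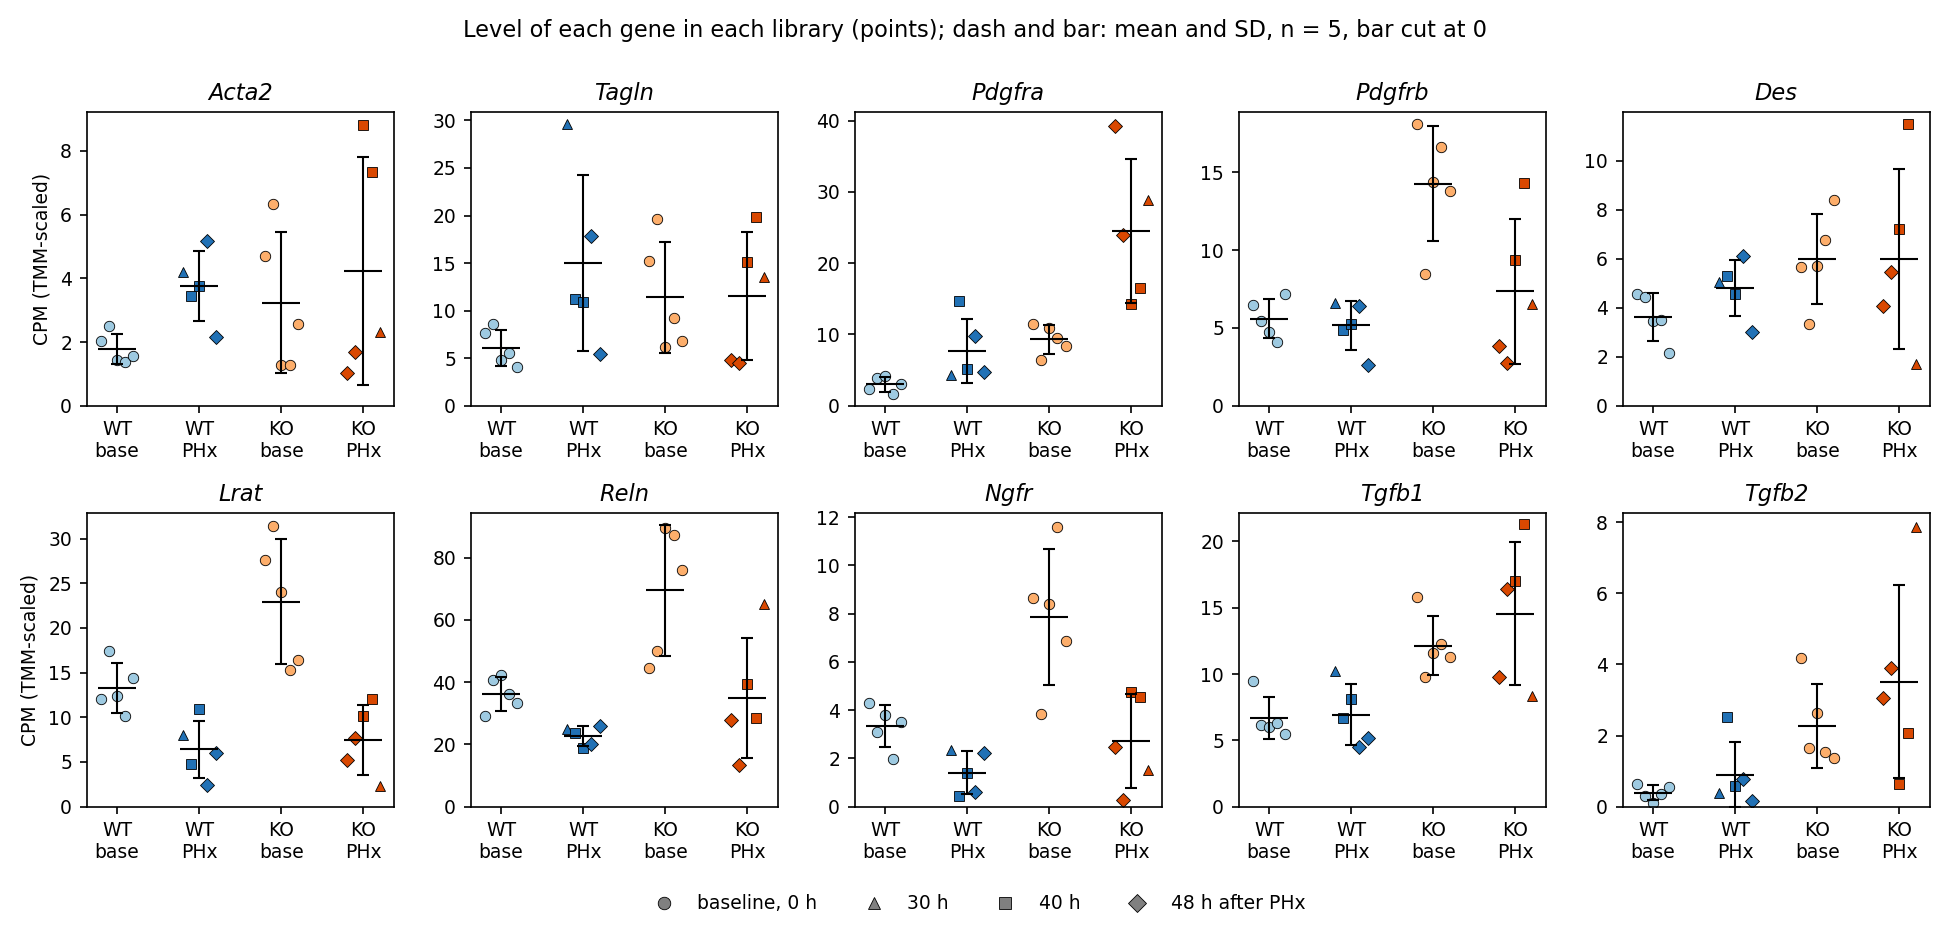
Level of each of the 10 genes in CPM (y axis, a separate linear scale from 0 for each gene) in the 20 libraries, by group (x axis: WT and KO, base for baseline and PHx for after PHx); points are libraries, their shape the collection time, and the dash and bar the mean and SD of 5. The KO baseline points of Pdgfra, Pdgfrb, Reln, Tgfb1 and Tgfb2 all lie above the WT baseline points.

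After PHx the ligands and Pdgfra were again higher in KO, while the other stellate cell genes did not differ by a called amount. Called higher were 3 of the 10 genes, Tgfb1, Tgfb2 and Pdgfra, and none was lower, beside 16% of all genes tested called higher, 8.20% called lower and 24.2% called in either direction. Pdgfra had 4.27, 14.7, 5.14, 9.78 and 4.70 CPM in WT and 39.3, 24, 14.2, 16.5 and 28.8 CPM in KO. Only WT replicate 2 reached into the KO range, and the difference was 1.67 (SE 0.36, edgeR adjusted p 0.00231). Tgfb1 had 10.2, 6.70, 8.14, 4.50 and 5.19 CPM in WT and 9.77, 16.4, 17, 21.3 and 8.33 CPM in KO. KO replicates 7 and 12 overlapped WT, and the difference was 1.07 (SE 0.27, edgeR adjusted p 0.00696). Tgfb2 had 0.392, 2.52, 0.571, 0.780 and 0.172 CPM in WT and 3.06, 3.91, 0.648, 2.08 and 7.86 CPM in KO. WT replicate 2 lay among the KO libraries and KO replicate 10 among the WT libraries, and the difference was 1.98 (SE 0.66, edgeR adjusted p 0.0333). The Tgfb2 call was lost without any one of WT replicates 1, 3, 4 and 5 or KO replicates 8 and 12 (adjusted p 0.0579 to 0.106), with collection time as a term (0.0722), and when the libraries after PHx alone were fitted (0.133). That last fit also lost Tgfb1 (adjusted p 0.0652) and called 1345 genes instead of 3544.

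The remaining receptors and quiescence markers overlapped between the genotypes after PHx. Pdgfrb had 6.63, 4.87, 5.25, 6.42 and 2.64 CPM in WT and 3.81, 2.72, 9.38, 14.3 and 6.53 CPM in KO. Ngfr had 2.35, 0.435, 1.41, 0.603 and 2.23 CPM in WT and 2.49, 0.264, 4.77, 4.53 and 1.51 CPM in KO. In both receptors the high KO libraries were replicates 10 and 11, the 40 h mice. Lrat had 7.98, 4.78, 10.9, 2.48 and 6.01 CPM in WT and 5.21, 7.73, 10.2, 12.1 and 2.27 CPM in KO. Reln had 25.1, 23.8, 18.8, 20.1 and 26 CPM in WT and 27.9, 13.4, 39.4, 28.6 and 65.2 CPM in KO, where replicate 12, the 30 h mouse, was the highest and replicate 8 the lowest library of all. The differences were 0.51 (SE 0.36, edgeR adjusted p 0.325) for Pdgfrb, 0.94 (SE 0.56, 0.233) for Ngfr, 0.23 (SE 0.38, 0.703) for Lrat and 0.62 (SE 0.29, 0.134) for Reln. Without KO replicate 8, Reln passed the threshold at 0.84 (edgeR adjusted p 0.0292).

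The cytoskeletal genes overlapped as well. Acta2 had 4.19, 3.44, 3.77, 5.18 and 2.16 CPM in WT and 1.02, 1.69, 8.81, 7.34 and 2.32 CPM in KO. Tagln had 29.6, 11.2, 10.9, 17.9 and 5.43 CPM in WT and 4.76, 4.52, 15.1, 19.8 and 13.5 CPM in KO. The WT values of Acta2 lay wholly inside the KO range, and its coefficient of variation was 29.4% in WT and 84.3% in KO. Des had 5.06, 5.31, 4.57, 6.10 and 2.99 CPM in WT and 4.08, 5.47, 7.21, 11.5 and 1.70 CPM in KO. The differences of 0.18 (SE 0.53, edgeR adjusted p 0.837) for Acta2, -0.38 (SE 0.46, 0.582) for Tagln and 0.32 (SE 0.37, 0.567) for Des have 95% intervals of -0.93 to 1.28, -1.33 to 0.57 and -0.46 to 1.10. None of the 10 genes had groups without overlap after PHx, beside 10% of all genes tested.

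The 3 collection times within KO lined up with this spread, as a description of 1 or 2 mice each. At 40 h the KO libraries had 7.34 and 8.81 CPM of Acta2, at 48 h 1.02 and 1.69 CPM, and at 30 h 2.32 CPM. For Tagln they had 15.1 and 19.8 CPM at 40 h and 4.52 and 4.76 CPM at 48 h, and for Pdgfrb 9.38 and 14.3 CPM at 40 h and 2.72 and 3.81 CPM at 48 h. Pdgfra and Tgfb2 had the opposite order in KO, with 14.2 and 16.5 CPM at 40 h against 24 and 39.3 CPM at 48 h for Pdgfra, and 0.648 and 2.08 CPM at 40 h against 3.06 and 3.91 CPM at 48 h for Tgfb2. In WT the 40 h and 48 h ranges overlapped for Acta2, Tagln, Pdgfra, Pdgfrb and Tgfb2. Differences between time points were not tested, since a time point holds at most 2 mice of a genotype. KO replicates 7 and 8, the 48 h mice, were also the mice with the highest Acta2 and Tagln at baseline.

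The response to PHx was tested between group means, without pairing the libraries of the same mouse. It was called for 4 of the 10 genes, Pdgfra in both genotypes and Lrat, Reln and Ngfr in KO. The responses of these 3 genes in WT did not pass the test. With the mouse as a block the genes called were 0 in WT and 5 in KO, instead of 1 and 4. Pdgfra rose in both genotypes, by 1.36 in WT (SE 0.37, edgeR adjusted p 0.0132) and by 1.39 in KO (SE 0.36, edgeR adjusted p 0.00839). It was higher after PHx in all 4 WT mice and all 5 KO mice with a number in both titles, by 1.22-fold to 6.10-fold in WT and 1.31-fold to 3.76-fold in KO, and neither genotype had overlapping groups. In WT the call was lost with the mouse as a block (1.35, edgeR adjusted p 0.0517) and without WT after PHx replicate 2 (1.00, edgeR adjusted p 0.0519), while no alternative lost it in KO. In WT it was the only gene of the 10 called, beside 11.4% of all genes tested called higher, 8.68% called lower and 20.1% called in either direction.

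In KO 3 genes fell, Lrat, Reln and Ngfr, and 1 rose, beside 12.1% of all genes tested called lower, 17.5% called higher and 29.5% called in either direction. Lrat fell by 1.61 on the log2 scale (SE 0.39, edgeR adjusted p 0.00578), from 22.9 ± 7 CPM to 7.50 ± 3.90 CPM (SD, n = 5), without overlap, and no alternative lost this call. Reln fell by 0.99 (SE 0.29, edgeR adjusted p 0.0173), which missed the threshold without replicate 7 of KO after PHx (-0.88, adjusted p 0.0573) or with the KO libraries fitted alone (-0.95, adjusted p 0.0936). Ngfr fell by 1.54 (SE 0.56, edgeR adjusted p 0.0438), a call lost without any one of baseline replicates 7, 10, 11 and 12 or later replicates 7, 8 and 12 of KO (-1.25 to -1.59, adjusted p 0.0622 to 0.100), with scaling by library size alone (-1.28, adjusted p 0.0865), without a filter (-1.55, adjusted p 0.0565) and when the KO libraries alone were fitted (-1.51, adjusted p 0.0884). All 3 were lower after PHx in 5 of 5 KO mice and also in 4 of 4 WT mice. The WT responses were -1.04 for Lrat (SE 0.38, edgeR adjusted p 0.0601), -0.67 for Reln (SE 0.29, 0.111) and -1.24 for Ngfr (SE 0.56, 0.128), none of them called. Lrat passed the threshold in WT without later replicate 3 (-1.32, adjusted p 0.0278), with the DESeq2 test (-1.01, 0.0395), with the WT libraries fitted alone (-1.01, 0.0494) and with collection time as a term (-1.06, 0.0427). Reln did so with the WT libraries fitted alone (-0.64, adjusted p 0.0104). Reln in WT had groups without overlap, as Pdgfra did, which makes 2 of 10 genes in WT beside 17.8% of all genes tested. In KO the 2 genes without overlap were Pdgfra and Lrat, beside 13.9%.

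Pdgfrb was lower after PHx in 5 of 5 KO mice, with same-mouse ratios of 0.210 to 0.861, and in 2 of 4 WT mice. Its response was -0.96 in KO (SE 0.36, edgeR adjusted p 0.0523) and -0.11 in WT (SE 0.36, edgeR adjusted p 0.865). The KO value passed the threshold with the mouse as a block (-1.15, adjusted p 0.0388), with the DESeq2 test (-0.93, 0.0409), with collection time as a term (-1.13, 0.0138) and without baseline replicate 8 (-1.10, 0.0401), later replicate 10 (-1.06, 0.0377) or later replicate 11 (-1.35, 0.0101) of KO. In KO, then, Pdgfra rose with PHx while the Pdgfrb value had the opposite sign and lay at the threshold. The WT value of Pdgfrb became 0.24 with scaling by library size alone.

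The contractile and intermediate filament genes were higher after PHx in 4 of 4 WT mice, without a call in the fit of all 20 libraries. Acta2 differed by 1.07 in WT (SE 0.54, edgeR adjusted p 0.168), Tagln by 1.30 (SE 0.47, 0.0545) and Des by 0.41 (SE 0.38, 0.475). Tagln passed the threshold without later replicate 5 (1.56, edgeR adjusted p 0.0253), with scaling by library size alone (1.67, 0.0140), with the DESeq2 test (1.33, 0.0239), with the WT libraries fitted alone (1.34, 0.0347) and with collection time as a term (1.26, 0.0386). Acta2 did so with the WT libraries fitted alone (1.11, edgeR adjusted p 0.0183). In KO the same-mouse ratios of Acta2 went in both directions, 6.91 and 5.70 in the 40 h mice, 0.898 in the 30 h mouse and 0.216 and 0.267 in the 48 h mice, and the group differences were 0.39 (SE 0.53, edgeR adjusted p 0.599) for Acta2, 0.02 (SE 0.46, 0.981) for Tagln and 0.00 (SE 0.37, 0.996) for Des. The ligands did not change by a called amount in either genotype. Tgfb1 differed by 0.06 in WT (SE 0.27, edgeR adjusted p 0.909) and 0.26 in KO (SE 0.27, 0.465), with 95% intervals of -0.50 to 0.62 and -0.29 to 0.82. Tgfb2 differed by 1.16 in WT (SE 0.69, edgeR adjusted p 0.244) and 0.62 in KO (SE 0.63, 0.465), with intervals of -0.27 to 2.60 and -0.69 to 1.93.

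**Figure D2:**
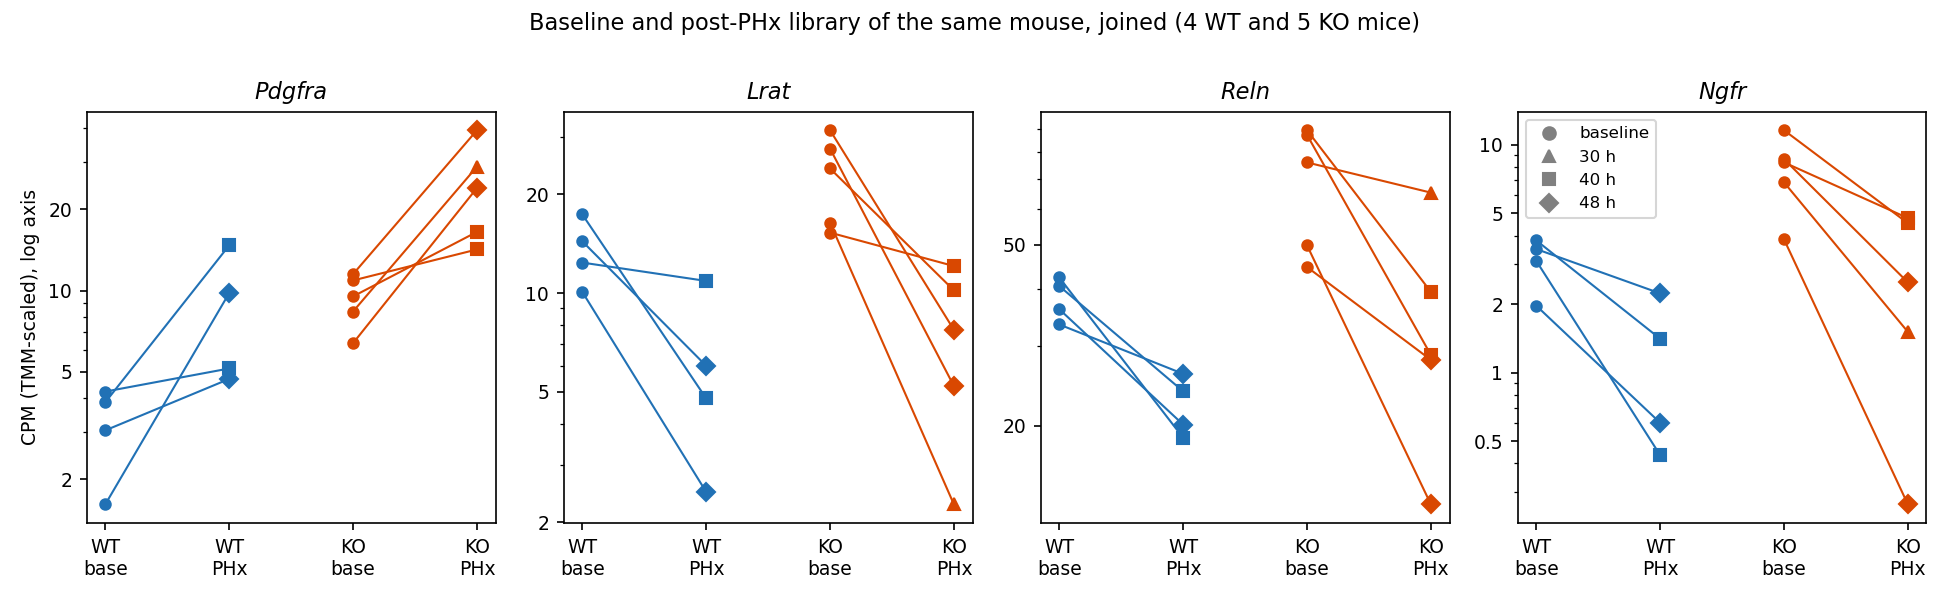
CPM of Pdgfra, Lrat, Reln and Ngfr (y axes, log scale) at baseline and after PHx (x axis), with a line joining the libraries of the same mouse, for 4 WT and 5 KO mice; point shapes give the collection time. All 9 lines rise for Pdgfra and fall for Lrat, Reln and Ngfr.

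Whether KO and WT livers differed in these responses was tested by the difference between the PHx responses in the same fit. None of the 10 genes was called with edgeR, none had an unadjusted p under 0.05, and the DESeq2 test also called 0, beside 0.389% of all genes tested (57 genes). The largest values were -1.28 for Tagln (SE 0.65, edgeR adjusted p 0.400, 95% interval -2.64 to 0.07) and -0.84 for Pdgfrb (SE 0.51, 0.491, interval -1.91 to 0.23). For Pdgfra the difference was 0.03 (SE 0.52, edgeR adjusted p 0.994, interval -1.06 to 1.12), so that the fold response of Pdgfra could still differ in either direction by an amount near its own size. Of the 10 values 8 were negative. So a fall called in KO and not in WT, as for Lrat, Reln and Ngfr, was not shown to differ between the genotypes.

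**Figure D3:**
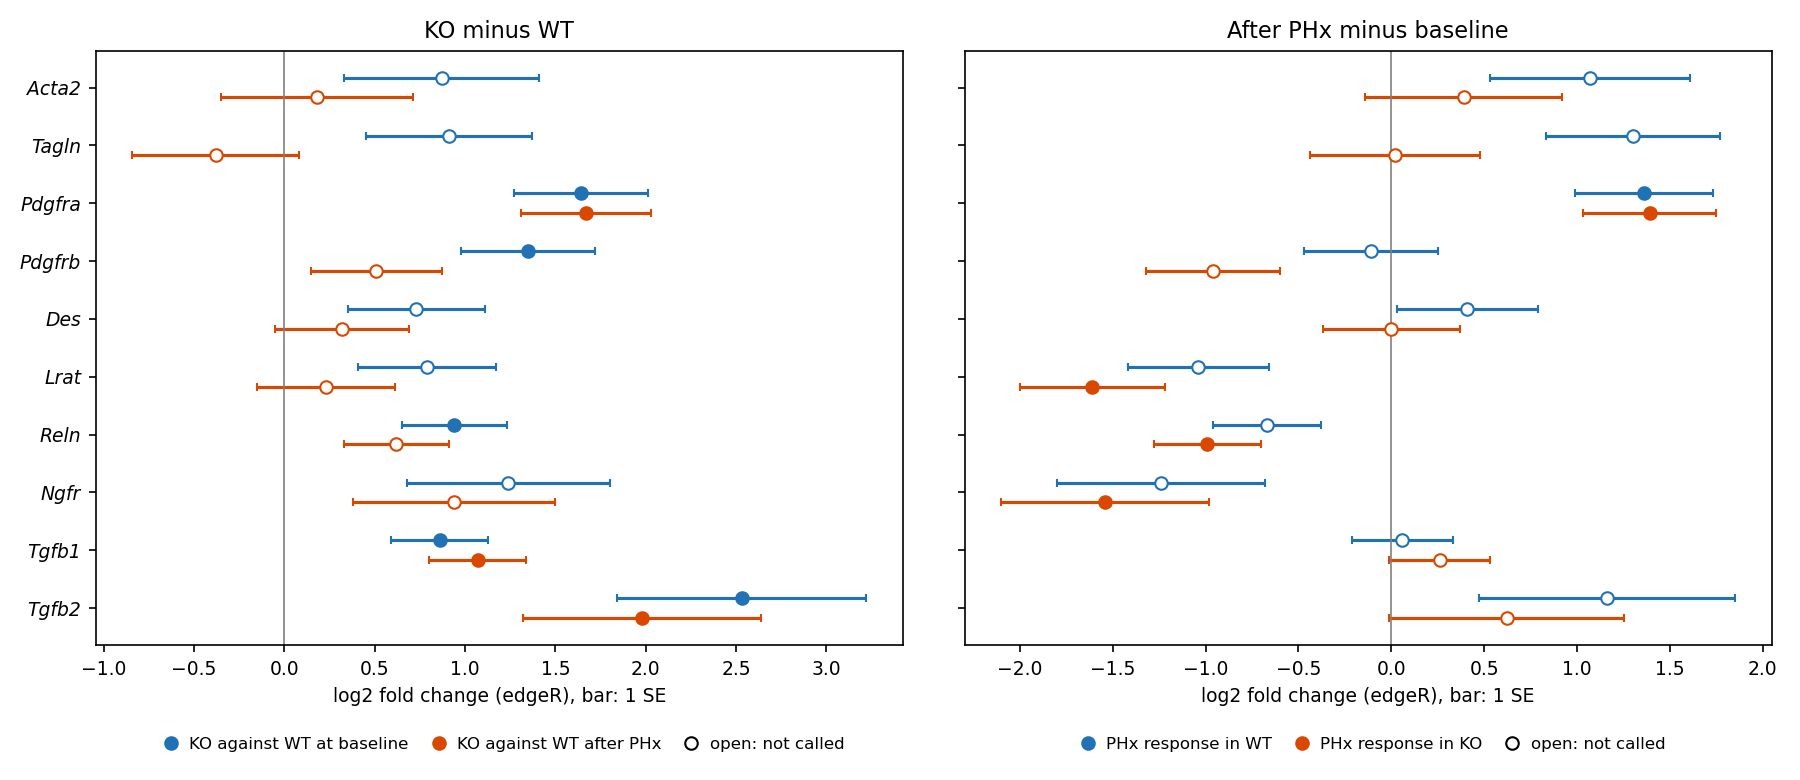
Fold change of each gene on the log2 scale (x axis, edgeR, bars 1 SE) for KO against WT (left) and after PHx against baseline (right); filled points are called at an adjusted p under 0.05, open points are not. At baseline 5 genes are filled on the KO side, and in the response to PHx Pdgfra is filled on the higher side in both genotypes while Lrat, Reln and Ngfr are filled on the lower side in KO.

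Per kb of exon, Tagln was the most abundant of the 10 in every group and Tgfb2 the least. In WT at baseline the order of the mean levels in CPM per kb was Tagln 3.07 ± 0.961, Lrat 2.48 ± 0.519, Reln 1.53 ± 0.228, Tgfb1 1.32 ± 0.317, Pdgfrb 1.02 ± 0.229, Ngfr 0.967 ± 0.254, Des 0.964 ± 0.258, Acta2 0.810 ± 0.216, Pdgfra 0.299 ± 0.108 and Tgfb2 0.0680 ± 0.0371 (SD, n = 5). Neighbours overlapped in their ranges except at 3 steps, from Lrat to Reln, from Acta2 to Pdgfra and from Pdgfra to Tgfb2. Lrat had rank 2 at baseline in both genotypes, at 2.48 CPM per kb in WT and 4.29 ± 1.31 CPM per kb in KO, but rank 5 in WT after PHx, at 1.20 ± 0.596 CPM per kb, and rank 7 in KO after PHx, at 1.40 ± 0.729 CPM per kb. Pdgfra went the other way in KO, from rank 9 at baseline in both genotypes to rank 3 in KO after PHx, at 2.45 ± 1.01 CPM per kb. In WT after PHx it had rank 8, at 0.770 ± 0.448 CPM per kb. In KO after PHx every gene of the order overlapped its neighbour.

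The machinery that releases and receives TGF-beta was described with lists of known pathway genes. At baseline 2 of 10 tested genes of ligand latency and activation were higher in KO and none lower (median 0.92), beside 11.1% of all genes tested called higher. These were Ltbp3, a latent TGF-beta binding protein, with 1.08 ± 0.173 CPM in WT and 6.35 ± 1.73 CPM in KO (SD, n = 5; 2.55, SE 0.37, edgeR adjusted p 9.82e-05), and Tgfb3, the remaining TGF-beta ligand (1.64, SE 0.46, adjusted p 0.0195). The Tgfb3 call was lost without WT replicate 5 or KO replicate 7 (adjusted p 0.0545 to 0.0713). Of the 6 receptors and co-receptors 3 were higher (median 0.78), led by Bambi, a decoy receptor (1.35, SE 0.25, edgeR adjusted p 0.000954), and Tgfbr2, the ligand-binding receptor kinase (1.25, SE 0.25, adjusted p 0.00210). Of the 9 SMAD genes and co-regulators only Smad6, an inhibitory SMAD, was higher (1.10, SE 0.26, edgeR adjusted p 0.00628; median 0.20). Among 10 TGF-beta target genes 6 were higher and none lower (median 1.76). Timp1, an inhibitor of metalloproteinases, had 3 counts in all WT baseline libraries together and 212 in KO, a ratio of 54.3 (95% counting interval 18.3 to 265). Pmepa1, an inhibitor of TGF-beta signalling, had 2.35 ± 0.465 CPM in WT and 10.9 ± 4.13 CPM in KO (SD, n = 5; 2.21, SE 0.44, edgeR adjusted p 0.00189). The median over all genes tested was -0.03. Genes of the pathway that were higher in KO thus included ligands, a receptor and inhibitors of the signal.

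After PHx the same lists held 3, 3, 2 and 6 genes higher in KO among 10, 6, 9 and 10 tested, none lower, with medians of 0.95, 0.94, 0.60 and 1.31 against -0.01 over all genes, of which 16% were called higher. Ltbp3 had 1.24 ± 0.472 CPM in WT and 11.8 ± 5.59 CPM in KO (SD, n = 5; 3.24, SE 0.38, edgeR adjusted p 6.75e-06), and Tgfb3 was higher by 2.19 (SE 0.46, 0.00180). Bambi was higher by 2.09 (SE 0.25, edgeR adjusted p 1.14e-05), Acvrl1, a type I receptor of the family, by 1.85 (SE 0.33, 0.000538) and Smad6 by 1.16 (SE 0.26, 0.00270). Smad3, a signal-carrying SMAD, was higher by 1.37 (SE 0.39, edgeR adjusted p 0.0143), a call lost without KO replicate 8 (adjusted p 0.0541) or 11 (0.0568) and with the libraries after PHx fitted alone (0.0970). Ccn2, which encodes connective tissue growth factor, rested on 1 library: it was higher by 3.13 (SE 0.90, edgeR adjusted p 0.0159), with 2.57 to 18.8 CPM in WT and 6.37 to 453 CPM in KO, and the call was lost without KO replicate 8 (adjusted p 0.468), with those libraries fitted alone (0.120) and with collection time as a term (0.0706). Col1a1, a chain of collagen type I, was higher by 1.46 (SE 0.46, edgeR adjusted p 0.0256), a call lost in 5 of the 10 fits that left out 1 library (WT replicates 1, 2 and 4 and KO replicates 10 and 11, adjusted p 0.0519 to 0.0686) and with those libraries fitted alone (0.0649).

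With PHx in WT 1 gene of latency and activation rose and 1 fell, 1 receptor rose, no SMAD gene was called (0 of 9 at an unadjusted p under 0.05) and 4 of 10 target genes rose, beside 11.4% of all genes tested called higher and 8.68% called lower. Ltbp4 fell by 1.70 (SE 0.27, edgeR adjusted p 0.000357) and Tgfbr2 rose by 1.59 (SE 0.25, 0.000394), from 20.4 ± 2.45 CPM to 61.5 ± 25.4 CPM (SD, n = 5). Timp1 went from 3 to 248 counts over 5 libraries, a ratio of 62.8 (95% counting interval 21.2 to 307). Itgav, an integrin subunit that takes part in activating TGF-beta, rose by 0.72 in WT (SE 0.25, edgeR adjusted p 0.0448), a call lost with the mouse as a block (0.0666) and in 7 of 10 fits without 1 library (WT baseline replicates 1 to 5, WT after PHx replicates 2 and 3, adjusted p up to 0.112).

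In KO 2 of 10 genes of latency and activation rose and 2 fell, 1 of 6 receptors rose and 1 fell, 3 of 9 SMAD genes rose and 3 of 10 target genes rose, beside 17.5% of all genes tested called higher and 12.1% called lower. Itgav rose by 1.01 (SE 0.25, edgeR adjusted p 0.00643), Tgfbr2 by 0.92 (SE 0.25, 0.0111), and Ltbp4 fell by 0.98 (SE 0.26, 0.0110, with the KO libraries fitted alone 0.0570). Ski, a SMAD co-repressor, rose by 0.79 (SE 0.22, edgeR adjusted p 0.0140, with the mouse as a block 0.0634) and Smurf1, a ubiquitin ligase that acts on the pathway, by 1.07 (SE 0.30, 0.0146, without later replicate 8 0.0518). Thbs1, an activator of latent TGF-beta, rose by 3.29 (SE 1.01, edgeR adjusted p 0.0212), a call lost without baseline replicate 11 or 12 or later replicate 8 of KO (adjusted p 0.0505 to 0.106). Nrros, which tethers latent TGF-beta on macrophages, fell by 0.90 (SE 0.28, edgeR adjusted p 0.0221, lost without later replicate 7 or 8, at 0.0512 and 0.0666 as the lowest and highest, with the block at 0.0526, and with scaling by library size alone at 0.115). Eng, an endothelial co-receptor, fell by 0.60 (SE 0.20, edgeR adjusted p 0.0321), and Timp1 rose by 1.61 (SE 0.57, 0.0387), each lost in 7 of 10 fits without 1 library, at adjusted p up to 0.109 and 0.0939. The Eng call was also lost with scaling by library size alone (-0.33, 0.233), without a filter (0.0570) and with the KO libraries fitted alone (0.108), and the Timp1 call without a filter (0.0583). Ccn2 rose by 2.34 (SE 0.87, edgeR adjusted p 0.0490), but the call was lost in 6 of 10 fits without 1 library (each of the baseline replicates and later replicate 8). Without later replicate 8 the value was -0.21 (adjusted p 0.793), and with the mouse as a block it was 0.34 (0.751).

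**Figure D4:**
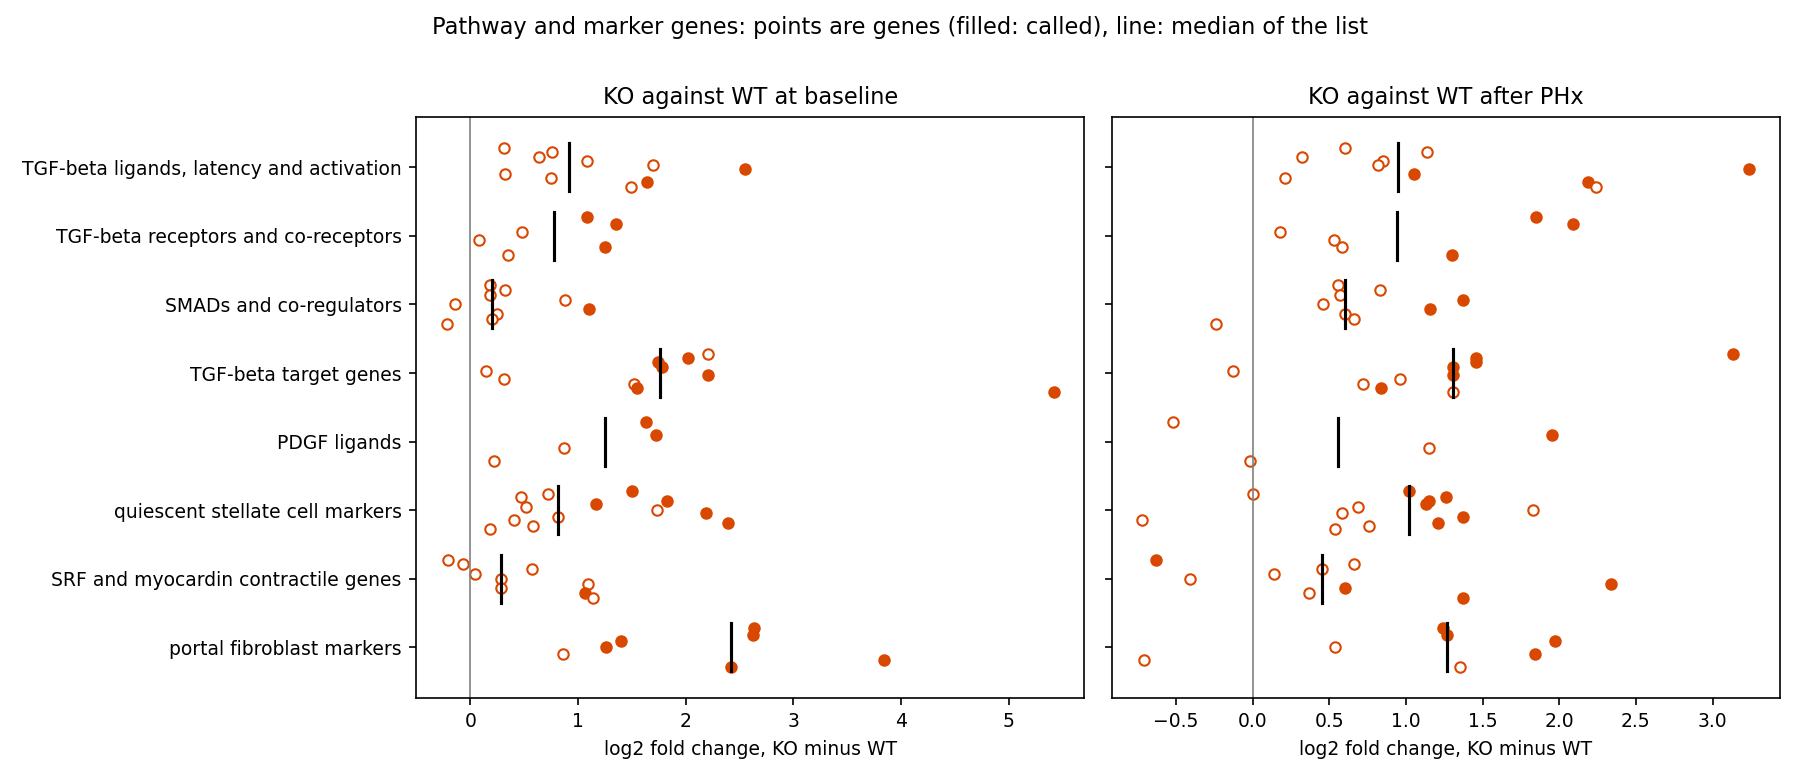
Fold change on the log2 scale (x axis, KO against WT) of the tested genes of 8 lists (y axis) at baseline (left) and after PHx (right); points are genes, filled where called, and the line is the median of the list. The rightmost point at baseline is Timp1, a fitted value on 3 WT counts, and the medians of all 8 lists lie above 0 in both panels.

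The ligands of the PDGF receptors gave the only called difference between the PHx responses among the pathway and marker lists. Pdgfa, a ligand of PDGFRA, had 4.52 ± 0.932 CPM at baseline and 20.8 ± 9.19 CPM after PHx in WT, and 14 ± 3.01 and 14.5 ± 3.30 CPM in KO (SD, n = 5). It was higher in KO at baseline by 1.63 (SE 0.28, edgeR adjusted p 0.000510) and rose with PHx in WT by 2.20 (SE 0.28, 6.11e-05), and its responses differed by -2.14 (SE 0.39, adjusted p 0.0176). That difference held without any 1 library and had an adjusted p of 0.0505 with the mouse as a block. Pdgfb, the ligand of both receptors, was higher in KO at baseline by 1.72 (SE 0.44, edgeR adjusted p 0.0114) and after PHx by 1.95 (SE 0.45, 0.00343). Pdgfd fell with PHx in KO by 2.00 (SE 0.55, edgeR adjusted p 0.0118) and in WT by 1.76 (SE 0.55, 0.0297), the WT call being lost with the block (0.114) and in 6 of 10 fits without 1 library (adjusted p up to 0.0873). So in WT Pdgfa and its receptor Pdgfra both rose after PHx, and in KO Pdgfra rose while the Pdgfa level stayed within 10.2 to 19.5 CPM in all 10 libraries.

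Other markers of quiescent stellate cells were set beside Lrat, Reln and Ngfr. Of 13 such genes 5 were higher in KO at baseline and none lower (median 0.81), and 6 were higher after PHx and none lower (median 1.02), beside 11.1% and 16% of all genes tested called higher. Hand2, a transcription factor of stellate cells, was higher at baseline by 2.19 (SE 0.34, edgeR adjusted p 0.000155). After PHx Colec11, a secreted lectin, was higher in KO by 1.26 (SE 0.33, edgeR adjusted p 0.00843, with the libraries after PHx fitted alone 0.0747), and so was Hgf, the hepatocyte mitogen, by 1.37 (SE 0.47, 0.0375), with the Hgf call lost in 7 of 10 fits without 1 library (adjusted p up to 0.113). With PHx in WT Colec11 fell by 1.64 (SE 0.33, edgeR adjusted p 0.00228). Vipr1, a neuropeptide receptor, fell by 1.16 (SE 0.35, edgeR adjusted p 0.0261) and Cygb, a globin of stellate cells, rose by 0.65 (SE 0.22, 0.0462), calls lost in 6 and 8 of 10 fits without 1 library (adjusted p up to 0.0849 and 0.118). The Cygb call was also lost with the mouse as a block (0.58, edgeR adjusted p 0.130) and without a filter (0.0631). In KO Hgf rose by 1.71 (SE 0.47, edgeR adjusted p 0.0121, with the KO libraries fitted alone 0.0501), and Hand2 and Bmp5, a growth factor, fell by 1.27 (SE 0.32, 0.00799) and 1.22 (SE 0.26, 0.00293). Of the 13 genes 2 were called higher and 2 lower in the WT response (median -0.05, 6 positive), beside 11.4% and 8.68% of all genes tested. In the KO response 1 was called higher and 2 lower (median -0.47), beside 17.5% and 12.1%. Called quiescence markers thus went both ways after PHx, but in KO only Hgf had a positive value. Lrat, Reln and Ngfr were lower in all 9 numbered mice.

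Contractile genes under serum response factor and its myocardin-family partners were set beside Acta2 and Tagln. Of 9 tested genes 1 was higher in KO at baseline, Tpm1, a tropomyosin (1.06, SE 0.26, edgeR adjusted p 0.00850), a share equal to the 11.1% of all genes tested called higher, and the median was 0.28. Myocd, the smooth muscle co-activator, had no count in any library. After PHx 3 were higher in KO and 1 lower (median 0.45), beside 16% and 8.20% of all genes tested: Smtn, or smoothelin, by 2.34 (SE 0.52, edgeR adjusted p 0.00271, with those libraries fitted alone 0.0507), Tpm2 by 1.37 (SE 0.42, 0.0221, lost without WT replicate 2 or KO replicate 11, at 0.0505 to 0.106), and Cald1, or caldesmon, lower by -0.63 (SE 0.16, 0.00721; -0.22 and adjusted p 0.425 with scaling by library size alone). With PHx Tpm1 rose in WT by 1.52 (SE 0.26, edgeR adjusted p 0.000731) and in KO by 0.83 (SE 0.26, 0.0221, with the block 0.0589, and lost in 5 of 10 fits without 1 library), Smtn rose in KO by 2.49 (SE 0.52, 0.00278), and Cald1 rose in WT by 0.57 (SE 0.16, 0.0176, with the block 0.122, and without later replicate 2 0.0627).

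Markers of other cell types that could hold these transcripts moved as well, and their part in the differences above was not tested. Their counts of genes called higher stand beside 11.1% of all genes tested at baseline, 16% after PHx, 11.4% in the WT response and 17.5% in the KO response. The 8 markers of portal fibroblasts, the mesenchymal cells around bile ducts, summed to 4.40 to 8.26 CPM in WT and 19 to 28.8 CPM in KO at baseline, and 6 of 7 tested were higher in KO, among them Cd34 (2.63, SE 0.32, edgeR adjusted p 1.32e-05). Pi16, another of them, had 1 count over the WT baseline libraries and 28 over KO, a ratio of 21.5 (95% counting interval 3.55 to 879). After PHx the sums were 7.76 to 11.2 CPM in WT and 16 to 30.9 CPM in KO, and 4 of 7 were higher, among them Entpd2 (1.97, SE 0.43, edgeR adjusted p 0.00240) and Mfap4 (1.84, SE 0.64, 0.0424, lost in 6 of 10 fits without 1 library, adjusted p up to 0.106). With PHx in WT 3 of 7 rose, among them Pi16, with 1 and 60 counts, a ratio of 45.6 (95% counting interval 7.88 to 1830.3), and Fbln2 (1.81, SE 0.42, edgeR adjusted p 0.00593). In KO Fbln2 alone rose (1.10, SE 0.40, edgeR adjusted p 0.0462, lost in 7 of 10 fits, and with the block 0.120). Portal fibroblasts also express Pdgfra and Pdgfrb, and no marker of the list was at 0 in a whole group.

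Mesothelial markers, which cover the cells of the liver capsule, summed to 1.15 to 1.95 CPM in WT and 2.66 to 6.57 CPM in KO at baseline, and to 1.57 to 6.70 and 6.91 to 50.9 CPM after PHx. At baseline 1 of 5 tested was higher in KO, beside 11.1% of all genes tested, namely Msln, with 2 and 55 counts (ratio 21.1, 95% counting interval 5.57 to 179; lost without WT replicate 4 at an edgeR adjusted p of 0.0513), and after PHx 2 were, beside 16%, Krt19 (3.02, SE 0.62, edgeR adjusted p 0.00153) and Wt1 (3.28, SE 1.00, 0.0218, without KO replicate 7 0.0539). Krt19 is a cholangiocyte keratin too, and reached 49.1 CPM in KO after PHx. With PHx in WT Msln and Upk3b rose from 2 counts each to 111 and 75, ratios of 42.2 (95% counting interval 11.4 to 353) and 28.5 (7.62 to 239.6). In KO Krt19 rose by 2.59 (SE 0.61, edgeR adjusted p 0.00506, with the block 0.0504) and Gpm6a fell by 1.20 (SE 0.42, 0.0378, lost in 9 of 10 fits). Schwann and neural crest markers, of interest because Ngfr is expressed there, summed to 0.275 to 2.67 CPM over all libraries. Of the 6 only 1 passed the filter, and Sox10, S100b and Foxd3 had no count in WT at baseline, where Ngfr had 1.97 to 4.29 CPM.

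Cholangiocyte markers summed to 22.8 to 57.3 CPM in WT and 52.8 to 358 CPM in KO at baseline, and to 20.1 to 237 and 121 to 787 CPM after PHx. Most of the baseline sum was Spp1, with a mean of 27.5 CPM in WT and 137 CPM in KO, beside 8.83 and 26.6 CPM for Sox9. Of the 5 genes 1 was higher in KO at baseline (beside 11.1% of all genes tested), Spp1, or osteopontin (2.32, SE 0.68, edgeR adjusted p 0.0237, lost in 5 of 10 fits), and 4 were after PHx (beside 16%), led by Cldn4 (6.39, SE 1.17, 0.000575) and Epcam (4.22, SE 0.66, 0.000140). With PHx Cldn4 went from 2 to 146 counts in WT, a ratio of 55.5 (95% counting interval 15.1 to 462), with 0 to 75 counts per library after PHx. Its WT call was lost in 8 of 10 fits without 1 library (edgeR adjusted p up to 0.100), with collection time as a term (0.0502) and with the mouse as a block (0.0817). Cldn4 rose in KO by 6.82 (SE 1.20, edgeR adjusted p 0.00109), as did Krt7 by 2.98 (SE 0.68, 0.00454). Macrophage markers, of interest because macrophages express Tgfb1, summed to 86.6 to 144 CPM in WT and 198 to 248 CPM in KO at baseline. Csf1r (1.15, SE 0.31, edgeR adjusted p 0.0160) and Cd68 (1.16, SE 0.36, 0.0336, lost in 7 of 10 fits) were higher, and no list gene was lower. After PHx the sums were 54.3 to 216 CPM in WT and 53.3 to 226 CPM in KO, with Csf1r called (0.87, SE 0.31, edgeR adjusted p 0.0493, lost in 7 of 10 fits). Marco rose with PHx in WT (3.89, SE 0.72, edgeR adjusted p 0.00122) and KO (2.42, SE 0.67, 0.0124, without later replicate 8 0.0517), Cd68 rose in WT (1.34, SE 0.36, 0.0138), and Csf1r fell in WT (-0.90, SE 0.31, 0.0481, lost in 9 of 10 fits). This Csf1r call was also lost with the mouse as a block (-0.95, edgeR adjusted p 0.0960) and with scaling by library size alone (-0.52, 0.247). It was lost too with DESeq2 size factors (0.0564), without a filter (0.0928) and with the WT libraries fitted alone (0.0813). In KO Adgre1 (-1.61, SE 0.51, edgeR adjusted p 0.0254) and Clec4f (-1.36, SE 0.49, 0.0436) fell, lost in 3 and 8 of 10 fits.

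Endothelial markers summed to 161 to 191 CPM in WT and 193 to 231 CPM in KO at baseline, and to 84.4 to 155 and 99.4 to 176 CPM after PHx. Only Cdh5 was higher in KO at both stages, by 0.57 (SE 0.18, edgeR adjusted p 0.0376) and 0.51 (SE 0.18, 0.0446), lost in 8 and 5 of 10 fits without 1 library. With PHx Kdr fell in WT by 1.60 (SE 0.46, edgeR adjusted p 0.0197, lost without later replicate 2 or 4, at 0.0513 to 0.0629) and in KO by 1.63 (SE 0.46, 0.0140, with the KO libraries fitted alone 0.0640), and Lyve1 rose in KO by 2.51 (SE 0.63, 0.00760). Of the 6 hepatocyte markers 3, 2, 2 and 2 were called lower and none higher at baseline, after PHx, in the WT response and in the KO response, beside 4.89%, 8.20%, 8.68% and 12.1% of all genes tested called lower. Those named, up to 2 a comparison, were Cyp2e1 and Apoa1 in KO at baseline (-1.26 and -0.80, edgeR adjusted p 0.0306 and 0.0482, lost in 7 and all 10 fits), Serpina1a and Apoa1 in KO after PHx (-1.28 and -0.84, 0.000831 and 0.0289, the second lost in 5 fits), Cyp2e1 and Ttr with PHx in WT (-2.08 and -1.34, 0.00150 and 0.000768), and Serpina1a and Ttr with PHx in KO (-0.80 and -0.79, 0.0199 and 0.0162, lost in 4 and 1 fits). With scaling by library size alone the baseline values of Cyp2e1 and Apoa1 were -0.80 (edgeR adjusted p 0.0896) and -0.33 (0.274), and that of Apoa1 after PHx was -0.47 (0.113). The remaining call at baseline, named after its value was seen, was Serpina1a (-0.72, SE 0.24, edgeR adjusted p 0.0470). The hepatocyte sum after PHx was 69732 to 114356 CPM in WT and 37655 to 86643 CPM in KO.

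Across the 20 libraries the 10 genes did not vary as 1 block. Correlations are given as descriptions over libraries that share group and depth, on log2(CPM + 1). Acta2 and Tagln had a Pearson r of 0.83, and 0.79 for the deviations from the group means. Pdgfra and Tgfb2 followed each other at 0.81, and at 0.64 within groups. Pdgfrb and Ngfr were related at 0.79 and 0.62, and Reln and Ngfr at 0.78 and 0.41. The quiescence markers Lrat and Reln had an r of 0.45 over all libraries but -0.42 for the deviations. Pdgfra had deviations opposite to those of Lrat (-0.48), Tgfb1 (-0.45) and Acta2 (-0.41), and Pdgfra and Pdgfrb had an r of 0.11. Among 12529 other genes with a mean of at least 1 CPM, the gene most like Acta2 and Tagln was Tgfb1i1, which encodes the focal adhesion protein Hic-5 (r 0.71 and 0.78, deviations 0.64 and 0.73). The gene most like Pdgfra was Chmp4c (0.94, deviations 0.70), most like Pdgfrb was Axl, a receptor tyrosine kinase (0.85, 0.68), and most like Des was Sh3yl1 (0.84, 0.89). For Lrat it was Neurl3 (0.93, 0.91), for Reln the glutathione transferase gene Gsta2 (0.92, 0.86), for Ngfr the parathyroid hormone receptor gene Pth1r (0.90, 0.76), for Tgfb1 Cotl1 (0.94, 0.91) and for Tgfb2 Insyn1 (0.94, 0.89).

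**Figure D5:**
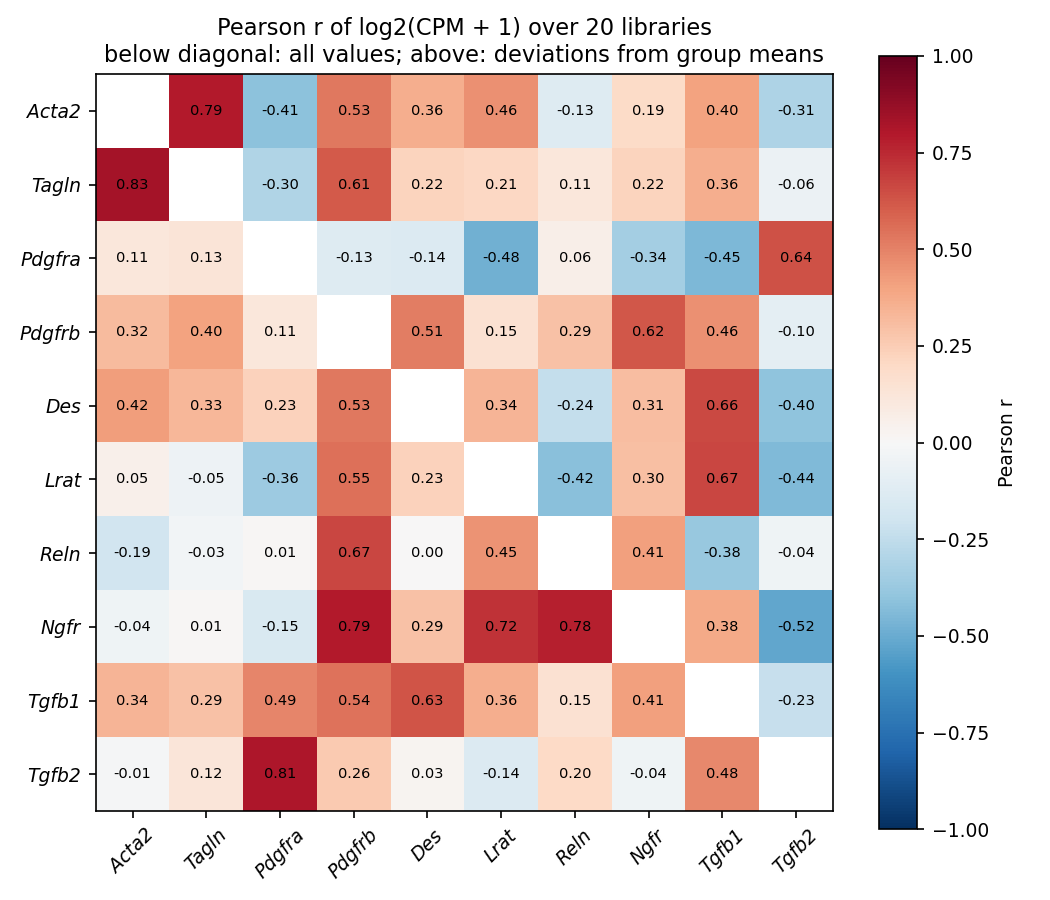
Pearson r of log2(CPM + 1) between the 10 genes (both axes) over 20 libraries, below the diagonal for all values and above it for deviations from the 4 group means; colour runs from -1 to 1. Acta2 with Tagln has 0.83 below and 0.79 above the diagonal, and Pdgfra with Tgfb2 has 0.81 and 0.64.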

How the data were processed

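Liver RNA from 20 libraries in 4 groups of 5 was analysed. The values are raw counts of reads per Ensembl gene, 1 table per library, as deposited by the authors. Per the labels' design text, 1000 ng of RNA (integrity number above 8) went into TruSeq poly(A) libraries, paired-end reads from a NovaSeq 6000 were trimmed with fastp 0.20.0 and checked with FastQC 0.11.5, and reads mapped once to mm10 were counted. The submitters' processing notes name Trimmomatic 0.36 and FastQC 0.11.5, so the trimming tool differs between the sources. The aligner, counter, strand setting and annotation are not given in the sources used here. Unique mapping lowers the counts of genes with close copies, and unstranded counting would mix overlapping antisense genes.

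Symbols came from GENCODE M21, which holds 46005 of the 46603 identifiers. No table had a row that names no gene. Totals of 21634890 to 30461351 counts per library set the precision, and intervals on counts (95%) cover counting error only. The reads carry no molecular identifiers. Every pair of replicates differed by more than sampling noise, so none was counted as a duplicate.

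All 20 libraries shared 1 fit in edgeR 4.0.16 (R 4.3.3; quasi-likelihood test, two-sided, TMM, filterByExpr, 4 group means, 14661 genes), with 5 contrasts and Benjamini-Hochberg adjustment over all genes tested. Called means an adjusted p under 0.05. Intervals of fold changes (95%) use the SE and the degrees of freedom of that test. The test was checked on simulated data. Alternatives were scaling by library size, DESeq2 1.42.0 size factors and test, no filter, a filter of 1 CPM in 5 libraries, only the libraries compared, collection time as a term, the mouse as a block, and leaving out each library. Promoters are from RefSeq on GRCm38.p6.

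The labels say that baseline and later samples came from the same mice, and 9 mice carry a number in both titles, so the numbers pair the samples. Deviations of same-numbered libraries had correlations of -0.06 to 0.20 (mean 0.06, 9 pairs) and those of different numbers -0.23 to 0.28 (mean -0.01, 41 pairs). The block fit used the 18 libraries of those 9 mice.

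The 10 genes and all lists were chosen with earlier results of these data known. Named from each list, for each contrast, were up to 2 called genes higher and 2 lower with the largest fold change. Some genes that this rule picks are not reported here. The most like gene of each of the 10 is the one with the highest Pearson correlation of log2(CPM + 1), with a pseudocount of 1.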

Additional observations from a re-analysis of the deposited data

Results flagged for a closer look

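In 40 sets of 5 libraries (10 genes in 4 groups), 2 libraries lay farther from the rest of their group than a 95% limit for outliers allows, and chance alone gives about 1 in 20 such sets. Tgfb1 had 9.49 CPM in WT baseline replicate 1, while the other libraries of that group had 5.50 to 6.28 CPM. Without that library the Tgfb1 difference between KO and WT at baseline was 1.02 (edgeR adjusted p 0.0230). Tgfb2 had 2.52 CPM in WT after PHx replicate 2, while the other libraries of that group had 0.172 to 0.780 CPM. Without it the Tgfb2 difference between KO and WT after PHx was 2.85 (edgeR adjusted p 0.00396).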

How the results depend on the processing

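Of 960 values for the 10 genes under the alternatives, 851 kept their direction and their side of the threshold, 38 lost the call, 27 gained one and 44 changed sign. No value that changed sign was called. Fitting the baseline libraries alone called 9 of the 10 genes (5 in the shared fit) and 5242 genes in all (2348), and scaling by library size alone called 9 and 3634. That scaling moved the median of all genes by 0.48 and 0.38 toward KO at baseline and after PHx, by 0.36 and 0.27 upward in the WT and KO responses, and put 96.9%, 92.9%, 86.7% and 80.9% of calls on the higher side, against 69.5%, 66.1%, 56.8% and 59.1%; for the difference between responses the share was 15.8% against 42.1%. It also lowered the WT baseline levels of all 10 genes. The means of Pdgfrb, Lrat, Reln and Tgfb1 moved by more than the SD of the group, to 4.25, 10.2, 27.8 and 5.03 CPM. With only the compared libraries fitted, 1 of the 10 genes (3) and 1345 genes (3544) were called between genotypes after PHx, 5 genes of the 10 (1) in the WT response, and 2 of the 10 (4) and 2878 genes (4331) in the KO response. The WT response also gave 2 calls with library size alone, 3 with the DESeq2 test, 3 with collection time as a term and 0 with the mouse as a replicate block. The difference between responses gave 57 genes in the shared fit, 376 with DESeq2, 90 with collection time and 7 with the block. The cause of these shifts was not tested.

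Sign changes were as follows. With collection time as a term Acta2 between genotypes after PHx became -0.28, and in the KO response Tagln and Des became -0.15 each. With the mouse as a block Tagln and Des in the KO response became -0.03 and -0.14, and the Pdgfra difference between responses became -0.03. Without a filter Des became -0.02 and that Pdgfra difference -0.06, as it did with library size alone, where Pdgfrb in the WT response became 0.24. Leaving out 1 library gave 3 to 5, 2 to 3, 0 to 2, 2 to 5 and 0 to 0 of the 10 genes called in the comparisons at baseline, after PHx, in the WT response, in the KO response and in the difference, and 22 to 708 genes in the difference. Values that changed sign there ranged, after PHx, from -0.28 to 0.47 for Acta2, -0.65 to 0.02 for Tagln, -0.09 to 0.55 for Des and -0.05 to 0.50 for Lrat. In the WT response they ranged from -0.22 to 0.10 for Pdgfrb and -0.12 to 0.23 for Tgfb1. In the KO response they ranged from -0.07 to 0.77 for Acta2, -0.27 to 0.30 for Tagln and -0.40 to 0.24 for Des. In the difference they ranged from -0.22 to 0.39 for Pdgfra, -0.05 to 0.38 for Tgfb1 and -1.07 to 0.33 for Tgfb2. Of 1693 values for the named list genes, 1422 kept their call, 270 lost it and 1 changed sign, Ccn2 in the KO response, which ranged from -0.21 to 2.64 without 1 library. Besides the calls named with each gene above, the block ended no call of the 10 genes. Low counts limit Tgfb2 most, with 38 counts over the 5 WT baseline libraries.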
